A study of Mus musculus with 4 samples.

Results

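The cholesterol synthesis genes examined here are 7 of the 20145 named genes on the array, measured by 8 of its 39429 probes, and all 8 probes are described. A probe was taken when its accession was a RefSeq transcript of Hmgcs1, Idi1, Fdft1, Sqle, Lss, Cyp51 or Insig1. No measured value entered that choice of probes, but the 7 genes themselves were chosen with earlier results of these data known. The arrays measured splenic B cells of mice, from which cells carrying CD43 had been removed, after 3 days of culture with LPS at 10 ug/mL and IL-4 at 10 ng/mL. Aff3-/- cells gave 2 arrays and Aff3+/- cells gave 2, so both groups had the same culture and the cells set beside Aff3-/- carry a disrupted Aff3 allele themselves. Aff3 is a nuclear factor gene, and the series asked how its loss alters gene expression. Nothing in the labels ties replicates to separate mice, so a p-value reflects the spread of these samples alone, which may be technical.

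Animal cells make cholesterol from acetyl-CoA. The mevalonate pathway builds isoprenoid units, squalene synthase joins them into squalene, and a further series of enzymes closes and trims the sterol ring. The transcription factor SREBP-2 drives most of these genes together. When sterols in the endoplasmic reticulum run low, SCAP carries SREBP-2 to the Golgi, where it is cut and released, and when sterols are plentiful INSIG proteins hold SCAP back. Lymphocytes that are stimulated to divide raise sterol synthesis, since new membrane needs cholesterol. By role, Hmgcs1 (HMG-CoA synthase) and Idi1 (isopentenyl diphosphate isomerase) belong to the mevalonate pathway, Fdft1 is squalene synthase, Sqle (squalene epoxidase), Lss (lanosterol synthase) and Cyp51 (lanosterol demethylase) act on the sterol skeleton, and Insig1 is the regulator that retains SCAP. None of the 7 is a lipoprotein receptor, so uptake is described from other genes.

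Upstream sequence was available for 5 of the 7 genes, as the 250 bases before the RefSeq start in build GRCm38.p6. Sqle and Fdft1 were not in that table. The windows of Hmgcs1, Lss and Insig1 are shown because these genes are the ones with a sterol regulatory element match, the widest spread between arrays, and the different order of arrays. Capitals mark matches, on either strand, to the sterol regulatory element TCACNCCAC, to CCAAT (bound by NF-Y), to GGGCGG (bound by Sp1) and to the E-box CACGTG. No match of one motif overlapped a match of another.
Hmgcs1, chr13:119690101-119690350, + strand: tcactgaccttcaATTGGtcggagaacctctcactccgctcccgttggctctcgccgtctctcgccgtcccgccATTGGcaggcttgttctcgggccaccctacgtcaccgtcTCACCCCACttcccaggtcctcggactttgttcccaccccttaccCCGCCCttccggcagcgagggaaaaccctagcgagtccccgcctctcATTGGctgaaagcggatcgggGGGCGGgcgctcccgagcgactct
Lss, chr10:76531355-76531604, + strand: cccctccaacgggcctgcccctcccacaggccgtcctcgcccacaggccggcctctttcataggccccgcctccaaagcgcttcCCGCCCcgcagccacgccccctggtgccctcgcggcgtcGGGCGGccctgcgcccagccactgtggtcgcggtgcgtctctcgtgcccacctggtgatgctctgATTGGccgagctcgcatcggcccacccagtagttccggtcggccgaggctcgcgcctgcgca
Insig1, chr5:28071162-28071411, + strand: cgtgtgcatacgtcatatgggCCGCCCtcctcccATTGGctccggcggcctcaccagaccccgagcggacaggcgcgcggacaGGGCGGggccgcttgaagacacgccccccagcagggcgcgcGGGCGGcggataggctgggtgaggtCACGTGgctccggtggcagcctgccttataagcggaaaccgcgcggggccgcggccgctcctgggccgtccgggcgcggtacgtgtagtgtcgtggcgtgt
TCACNCCAC occurred in 1 of the 5 windows, that of Hmgcs1, and in 1.04% of 27025 promoters of the same length. CCAAT occurred in all 5 windows and in 34.5% of promoters, and GGGCGG in all 5 and in 32.9%. The Hmgcs1 window held 3 CCAAT matches, and 10.5% of all promoters held 2 or more. CACGTG was found in the Insig1 window and in 6.05% of promoters. These are matches of letters and not shown to be sites. Variants of TCACNCCAC were not searched, so a window without a match is not shown to lack a sterol regulatory element.

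**Figure D1:**
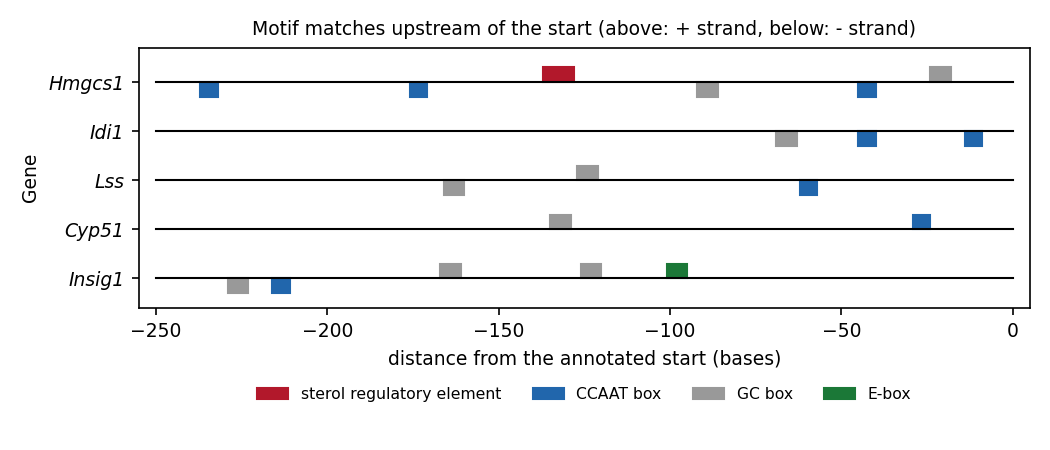
Motif matches in the 250 bases upstream of the start of 5 cholesterol synthesis genes, by distance from the annotated start (x axis, bases), with + strand matches above the line and - strand matches below it. A CCAAT match lies in each window, and a match to the sterol regulatory element pattern TCACNCCAC in that of Hmgcs1 only. Variants of that pattern were not searched.

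Signals are given as log2 of the processed signal relative to the array's 75th percentile, so that 0 is that percentile and 1 unit is a doubling. Levels of different genes are not set against each other. Of 39429 probes, between 24956 and 25878 were well above background on an array, no gene spot was saturated, and 20643 features (named genes, or accessions without a symbol) were tested. Comparison of Aff3-/- with Aff3+/- cells by limma gave 0 features with an adjusted p under 0.05 (0.00% of those tested) and 422 with an unadjusted p under 0.05 (2.04%). The level of Aff3 was not analysed here, since no probe carried any of its 7 listed accessions, and each direction therefore rests on the labels. All 9 B cell markers on the list were tested. Their median log2 difference (Aff3-/- minus Aff3+/-) was -0.15, with 7 below 0, 2 above and 0 called, and the genotypes overlapped for each. The sign of that median depended on single arrays. Leaving out Aff3-/- replicate 2 moved it to +0.07, and dropping Aff3+/- replicate 1 to +0.01. Dropping either of the other arrays gave -0.32. Cr2 differed most, by -0.53 ± 0.32 (SE). Cd79b differed least, at 7.02 and 6.61 in Aff3-/- cells and at 6.93 and 6.74 in Aff3+/- cells.

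All 7 cholesterol synthesis genes were well above background on all 4 arrays, and none differed between Aff3-/- and Aff3+/- cells by more than its error. Their log2 differences (Aff3-/- minus Aff3+/-) lay between -0.11 and +0.08, 5 of 7 were below 0, and the median was -0.07, where the median over all features was -0.01 and 54.3% of features were below 0. The genotypes overlapped for each of the 7, so that 0 were lower and 0 higher without overlap, against 11.2% and 8.45% of all features. For each of the 7 genes the arrays of a genotype lay further apart than the genotype means. For all 7 genes the lowest value was that of Aff3-/- replicate 1, which was the lowest array for 26.2% of all features. For 6 of 7 the highest value was that of Aff3-/- replicate 2, the highest array for 28.3% of features. For the same 6 genes both Aff3+/- arrays fell between the Aff3-/- arrays, with Aff3+/- replicate 1 the lower of them, and 11.8% of features had this full order. Aff3-/- replicate 2 was above Aff3-/- replicate 1 for 7 of 7 genes and 46.1% of features, and Aff3+/- replicate 2 above Aff3+/- replicate 1 for 6 of 7 genes and 49.8% of features. Both held together for 6 of 7 genes and 35.6% of features.

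**Figure D2:**
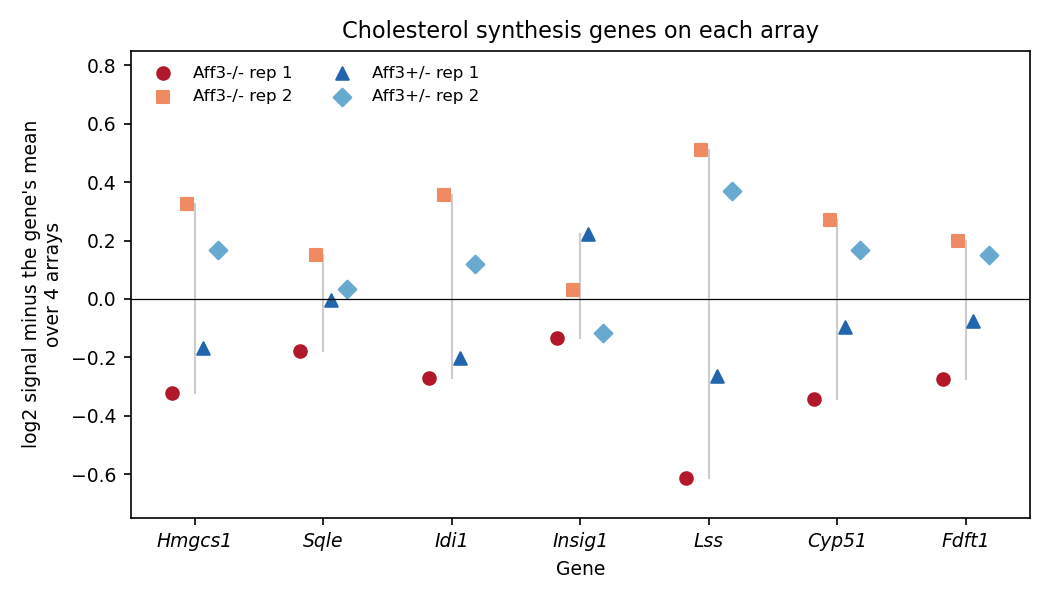
Log2 signal of each cholesterol synthesis gene on each array, minus that gene's mean over the 4 arrays (y axis), with 1 point per array and a grey line from the lowest to the highest. Aff3-/- replicate 1 is the lowest point of every gene, and Aff3-/- replicate 2 is the highest for all but Insig1, whose highest point is Aff3+/- replicate 1.

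Hmgcs1, which condenses acetoacetyl-CoA with acetyl-CoA into HMG-CoA, was at 4.75 and 5.40 in Aff3-/- cells, against 4.90 and 5.24 in Aff3+/- cells. The Aff3-/- arrays enclosed the Aff3+/- arrays and were themselves 1.57-fold apart, while the Aff3+/- arrays were 1.26-fold apart. As processed signal these are 35379.8 and 54207 intensity units in Aff3-/- cells, and 38138 and 51005 in Aff3+/- cells. The means were alike, at 5.07 ± 0.46 and 5.07 ± 0.24 (SD, n = 2 each), with a difference of +0.00034 ± 0.26 (SE) and a 95% interval of -0.70 to +0.70 (limma, adjusted p = 1.00). That interval takes in changes between 0.616-fold and 1.62-fold, so the near-equal means do not show equal expression.

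Idi1, which interconverts the isoprenoid building blocks isopentenyl and dimethylallyl diphosphate, was at 4.42 and 5.05 in Aff3-/- cells, against 4.49 and 4.81 in Aff3+/- cells. Its lower Aff3-/- array lay just under the lower Aff3+/- array, and its higher Aff3-/- array was well above both. The difference was +0.08 ± 0.26 (SE), the highest of the 7, with an interval of -0.60 to +0.76.

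Fdft1, which joins farnesyl diphosphate into squalene and so commits the pathway to sterols, has 2 probes for the same transcript accession. The brighter gave 1.74 and 2.21 in Aff3-/- cells, against 1.93 and 2.16 in Aff3+/- cells, a difference of -0.08 ± 0.20 (SE) with an interval of -0.62 to +0.46. Its arrays had the order of Hmgcs1 and Idi1, over a narrower span of 1.39-fold. The other probe was far dimmer, at 7.32 and 9.72 intensity units in Aff3-/- cells and 12.3 and 8.49 in Aff3+/- cells, although the scanner software called it well above background on all 4 arrays. It had another order, with Aff3+/- replicate 1 highest, and differed by -0.27 ± 0.27 (SE) in the fit over all probes (limma, adjusted p = 1.00). The probes disagree in the order of the arrays and not in the sign of the difference.

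Sqle, the oxygen-requiring squalene epoxidase, was at 4.05 and 4.37 in Aff3-/- cells, against 4.22 and 4.26 in Aff3+/- cells. It varied least among the 7, by 0.33 over the arrays, and its Aff3+/- arrays were nearly level. The difference was -0.03 ± 0.15 (SE), with an interval of -0.44 to +0.38.

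Lss, which folds squalene epoxide into lanosterol and so makes the ring system, varied most. It was at 0.45 and 1.57 in Aff3-/- cells, against 0.80 and 1.43 in Aff3+/- cells. In processed signal Aff3-/- replicate 1 had 1793 intensity units and Aff3-/- replicate 2 had 3820, a 2.18-fold gap within a genotype, and the Aff3+/- arrays, with 2212 and 3638, were 1.55-fold apart. The difference between genotypes was -0.11 ± 0.44 (SE), a small part of either gap, and its interval of -1.27 to +1.06 takes in 0.416-fold to 2.08-fold.

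Cyp51, which removes a methyl group from lanosterol, was at 1.21 and 1.83 in Aff3-/- cells, against 1.46 and 1.72 in Aff3+/- cells. The order of arrays was that of Lss at a smaller size, 1.53-fold between the Aff3-/- arrays. The difference was -0.07 ± 0.25 (SE), with an interval of -0.72 to +0.58.

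Insig1, itself a target of SREBP-2 and its brake, departed from the enzymes. It was at -1.10 and -0.94 in Aff3-/- cells, against -0.75 and -1.09 in Aff3+/- cells. Aff3+/- replicate 1 was the highest array, and Aff3+/- replicate 2 was almost as low as Aff3-/- replicate 1. In processed signal the Aff3-/- arrays had 613 and 672 intensity units and the Aff3+/- arrays 759 and 637. The difference was -0.10 ± 0.17 (SE), with an interval of -0.54 to +0.33. The 6 enzymes were 0.04 to 0.63 higher on Aff3+/- replicate 2 than on Aff3+/- replicate 1, and Insig1 was the exception at -0.34.

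The enzymes thus varied more between arrays of 1 genotype than between genotypes. The median gap between Aff3-/- replicate 2 and Aff3-/- replicate 1 was +0.61 over the 7 genes and -0.03 over all features, and that between the Aff3+/- arrays was +0.26 and -0.00154. In size, without regard to sign, the gap of the Aff3-/- arrays had a median of 0.61 over the 7 genes and 0.20 over all features. The span over all 4 arrays had a median of 0.61 over the 7 genes and 0.30 over all features, of which 15.7% had a span at least as wide as the members' median. With so wide a spread inside a genotype, the sign of the median difference depended on single arrays. It became +0.24 when Aff3-/- replicate 1 was left out and -0.31 when Aff3-/- replicate 2 was. Leaving out an Aff3+/- array gave -0.17 (replicate 1) and +0.06 (replicate 2). Without Aff3-/- replicate 2 all 7 genes were lower without overlap, as were 32.6% of features, and without Aff3-/- replicate 1 it was 6 of 7 that were higher, as were 32.9% of features. Leaving out Aff3+/- replicate 2 gave 1 of 7 lower in this way, and 31.4% of features. A lone array meets a no-overlap rule more easily. Leaving out 1 array also leaves the replicate numbers unbalanced between the genotypes.

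**Figure D3:**
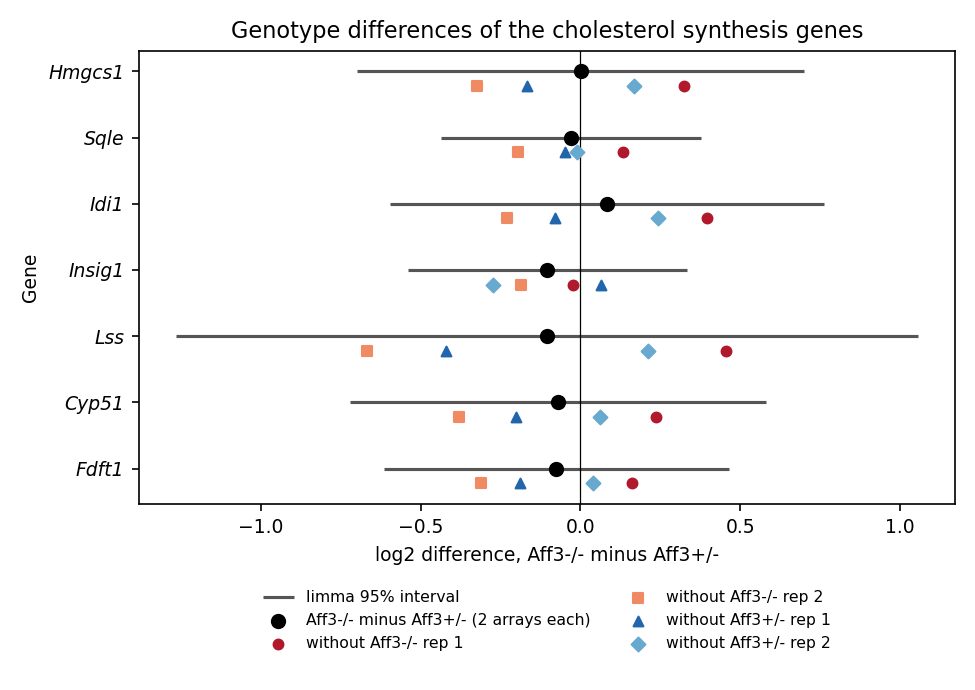
Log2 difference between Aff3-/- and Aff3+/- cells (x axis) for each cholesterol synthesis gene, with the limma 95% interval as a line and, below it, the difference with each array left out in turn. Every interval crosses 0, and for the 6 enzymes the values without Aff3-/- replicate 1 lie to the right of 0 and those without Aff3-/- replicate 2 to the left.

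The other enzymes of the mevalonate branch, 7 listed and 7 tested, showed the same low array. Aff3-/- replicate 1 was lowest for 6 of them and Aff3-/- replicate 2 highest for 4. All 7 were lower in mean in Aff3-/- cells, with 0 called and a median of -0.07. That median became +0.09 when Aff3-/- replicate 1 was left out, -0.23 when Aff3-/- replicate 2 was, -0.0012 when Aff3+/- replicate 2 was and -0.16 when Aff3+/- replicate 1 was. Pmvk, the kinase that phosphorylates phosphomevalonate, was at 4.34 and 4.90 in Aff3-/- cells, against 4.55 and 4.78 in Aff3+/- cells. Mvd, which decarboxylates mevalonate diphosphate, was at 1.90 and 2.15 in Aff3-/- cells, against 2.03 and 2.22 in Aff3+/- cells. Fdps, which makes farnesyl diphosphate, was at 5.17 and 5.45 in Aff3-/- cells, against 5.28 and 5.48 in Aff3+/- cells. In each the genotypes overlapped. Ggps1, which turns farnesyl diphosphate toward protein prenylation, was the exception among them, at 1.00 and 0.95 in Aff3-/- cells and 1.16 and 0.95 in Aff3+/- cells.

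Of the further enzymes of the sterol ring, 9 of 9 were tested, and Aff3-/- replicate 1 was lowest for all 9. Aff3-/- replicate 2 was highest for 5. The median difference was -0.06, with 8 below 0 and 0 called. It became +0.10 when Aff3-/- replicate 1 was left out, -0.31 when Aff3-/- replicate 2 was, +0.01 when Aff3+/- replicate 2 was and -0.13 when Aff3+/- replicate 1 was. Sc5d, a ring desaturase, was at 2.67 and 3.29 in Aff3-/- cells, against 2.91 and 3.06 in Aff3+/- cells. It repeats the order of Cyp51. The ring enzyme Hsd17b7 was at 0.06 and 0.32 in Aff3-/- cells, against 0.44 and 0.18 in Aff3+/- cells. For it, as for Insig1, Aff3+/- replicate 1 was the highest array.

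The machinery that senses sterols did not follow the enzymes. Among 13 SREBP control genes, all tested, Aff3-/- replicate 1 was lowest for 1 and the median difference was +0.05, with 0 called. It became -0.03 when Aff3-/- replicate 1 was left out and +0.0047 when Aff3+/- replicate 2 was. The authors' deposited log2 table, as used here, held 6 of the 13 genes, and their median was -0.08. Among the 22089 features it held, 4046 were lower and 0 higher without overlap, so the value rests on fewer genes and on none that were higher without overlap. Srebf2, which encodes SREBP-2, was at 0.64 and 0.50 in Aff3-/- cells, against 0.74 and 0.58 in Aff3+/- cells. Scap was at 3.64 and 3.74 in Aff3-/- cells, against 3.63 and 3.69 in Aff3+/- cells, and Insig2, the paralogue of Insig1, at 0.72 and 0.66, against 0.71 and 0.67. Each of these spans at most 0.24 over the arrays. The genes of smallest p were Erlin1, which acts in the sterol-driven degradation of HMG-CoA reductase and was +0.18 ± 0.11 (SE) without overlap, and the ubiquitin ligase gene Rnf145 at -0.14 ± 0.12 without overlap (limma, adjusted p = 1.00 for each).

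Uptake and lysosomal release genes, 12 of 12 tested, had a median difference of -0.05, with 10 below 0 and 0 called. Of all features 54.3% were below 0. Of the list 2 were lower without overlap, where 11.2% of all features were. That median was -0.10 without Aff3+/- replicate 2 and -0.01 with each array scaled to its median. Aff3-/- replicate 1 was lowest for 3 of them. Mylip, a ubiquitin ligase that degrades lipoprotein receptors, was at 0.48 and 0.34 in Aff3-/- cells, against 0.55 and 0.69 in Aff3+/- cells. Both Aff3-/- arrays were below both Aff3+/- arrays, and the difference was -0.22 ± 0.13 (SE; limma, adjusted p = 1.00). The scavenger receptor gene Scarb1, which takes up cholesterol from HDL, had the order of Lss apart from its top pair, at 0.72 and 1.08 in Aff3-/- cells and 0.85 and 1.12 in Aff3+/- cells. The lipoprotein receptor gene Vldlr ran the other way, at 0.50 and -0.81 in Aff3-/- cells and -0.17 and -1.19 in Aff3+/- cells, with a span wider than that of any of the 7.

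LXR target, efflux and esterification genes, which handle sterol excess, had 9 of 12 tested, and 5 were lower, with a median of -0.06 and 0 called. That median became +0.03 when Aff3+/- replicate 2 was left out, -0.12 when Aff3-/- replicate 1 was, -0.01 when Aff3-/- replicate 2 was and -0.02 when Aff3+/- replicate 1 was. Of the 9 genes 2 were lower without overlap (11.2% of all features), among them Nr1h2, which encodes an LXR receptor. Aff3-/- replicate 2 was highest for 0 of them. Soat2, an enzyme that esterifies cholesterol, was at 1.19 and 0.19 in Aff3-/- cells, against 0.37 and -0.03 in Aff3+/- cells, and the cholesterol exporter gene Abca1 at -2.73 and -3.85, against -2.83 and -3.30. Abca1 was lowest on Aff3-/- replicate 2, where the enzymes were high, and both genes were highest on Aff3-/- replicate 1. Soat2 differed by +0.52 ± 0.37 (SE) with overlap.

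Fatty acid synthesis genes, which SREBP-1 drives, were nearer to the cholesterol enzymes in their arrays. Of 14 tested, Aff3-/- replicate 2 was highest for 11 and Aff3-/- replicate 1 lowest for 7. The median difference was -0.02, with 0 called, and +0.0093 with each array scaled to its median. It became +0.20 when Aff3-/- replicate 1 was left out, -0.17 when Aff3-/- replicate 2 was, +0.09 when Aff3+/- replicate 2 was and -0.12 when Aff3+/- replicate 1 was. Acly, which makes cytosolic acetyl-CoA, was at 3.91 and 4.62 in Aff3-/- cells, against 4.10 and 4.49 in Aff3+/- cells. Gpam, of the smallest p in this list, was +0.30 ± 0.23 (SE; limma, adjusted p = 1.00), and the desaturase Scd1 was -0.08 ± 0.12 without overlap. Of 13 genes for prenylation, dolichol and ubiquinone, which use the same isoprenoids, 5 were lower with a median of +0.02 and 0 called. That median became -0.08 when Aff3-/- replicate 2 was left out, -0.04 when Aff3+/- replicate 1 was, +0.07 when Aff3-/- replicate 1 was and +0.04 when Aff3+/- replicate 2 was. Fnta, a farnesyltransferase subunit, was +0.13 ± 0.11 and higher without overlap (8.45% of all features), while the prenyltransferase subunit genes Rabggta and Pggt1b were lower without overlap (11.2%). Rce1, a protease that trims prenylated proteins, was +0.09 ± 0.12 with overlap.

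**Figure D4:**
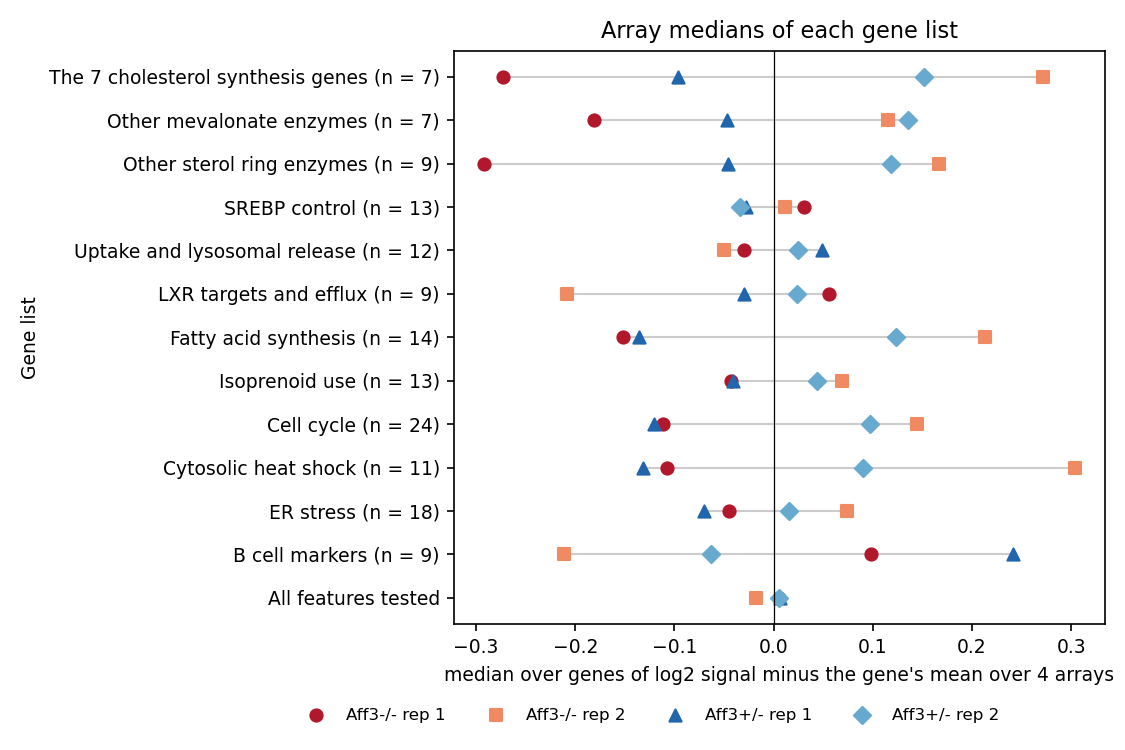
For each gene list, the median over its tested genes of the log2 signal minus the gene's mean over the 4 arrays (x axis), with 1 point per array. The cholesterol synthesis genes run from -0.27 on Aff3-/- replicate 1 to +0.27 on Aff3-/- replicate 2, the B cell markers have Aff3-/- replicate 2 lowest, and all features tested lie close to 0.

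Other groups also varied between these arrays, in part in another order, and their part in the spread of the cholesterol genes was not tested. The median of 24 cell cycle genes, as deviation from each gene's mean, was -0.11 and +0.15 on the Aff3-/- arrays, and -0.12 and +0.10 on the Aff3+/- arrays. Aff3-/- replicate 2 was highest for 17 of them. The median of 11 cytosolic heat shock genes was -0.11 and +0.30 on the Aff3-/- arrays, and -0.13 and +0.09 on the Aff3+/- arrays. The chaperone gene Hsph1 had the order of the 6 enzymes, at 1.47 and 2.69 in Aff3-/- cells and 1.64 and 2.37 in Aff3+/- cells. The median of 18 endoplasmic reticulum stress genes was -0.05 and +0.07 on the Aff3-/- arrays, and -0.07 and +0.02 on the Aff3+/- arrays. That list was split, with 9 genes higher (35.6% of all features) and 7 lower on replicate 2 in both genotypes. In each of these lists the lowest median was that of Aff3+/- replicate 1. Aff3-/- replicate 1 was lowest for 9 cell cycle, 6 heat shock and 8 endoplasmic reticulum genes, and for 26.2% of all features. None of these genes was called between genotypes. Those of smallest p were Tyms at +0.20 ± 0.13 and Cenpf at -0.20 ± 0.14 for the cell cycle, Hspb1 at -0.19 ± 0.11 and Hspd1 at +0.23 ± 0.23 for heat shock, and Derl1 at +0.15 ± 0.11 and Asns at +0.29 ± 0.22 for the endoplasmic reticulum (SE; limma, adjusted p = 1.00 for each).

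The B cell markers ran against the cholesterol genes. Their summed signal, in multiples of the array's 75th percentile, was 282 and 229 in Aff3-/- cells, against 269 and 244 in Aff3+/- cells, and all 9 were detected. For the plasma cell list (8 of 8 tested) the sums were 109 and 108 in Aff3-/- cells and 99.0 and 106.8 in Aff3+/- cells. T cell markers (11 of 12 tested) summed to 14.2 and 12.6 in Aff3-/- cells and 15.5 and 13.7 in Aff3+/- cells, with Cd3g not well above background anywhere. Such sums weigh the brightest genes most, and the T cell markers were mixed. Of the 11, 7 had a difference below 0 (54.3% of all features). Thy1 (+1.09 ± 0.37), Cd8a and Cd28 were higher without overlap (8.45% of features), and Zap70 was lower without overlap (11.2%). Monocyte and macrophage markers (6 of 10 tested) summed to 7.96 and 7.27 in Aff3-/- cells and 8.72 and 7.54 in Aff3+/- cells, with Lyz2, C1qa and Fcgr1 not well above background. Stromal and endothelial (5 of 9 tested), NK cell (3 of 6) and neutrophil markers (2 of 7) summed to at most 3.04, 2.33 and 0.589 in Aff3-/- cells and to at most 3.05, 2.33 and 0.913 in Aff3+/- cells, and Col1a1, Ncr1 and S100a8 were among those not well above background. Erythroid and platelet markers (4 of 8 tested) summed to at most 0.102 in Aff3-/- cells and 0.0582 in Aff3+/- cells, with Alas2 and Ppbp among those not well above background. Dendritic cell markers (3 of 6 tested) summed to 94.0 and 89.5 in Aff3-/- cells and 103 and 93.3 in Aff3+/- cells, most of it from Siglech and the next largest share from Flt3, while Itgax, Xcr1 and Clec9a were not well above background. On each array most of the monocyte and macrophage sum came from Itgam, and most of the stromal and endothelial sum from Kdr. Fewer cells of a type and less RNA per cell cannot be told apart in such bulk samples.

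Likeness to the 7 genes was measured as the root mean square difference, over the 4 arrays, between a gene's centred log2 values and the mean of the members' centred values. That mean was -0.31 and +0.26 on the Aff3-/- arrays, and -0.08 and +0.13 on the Aff3+/- arrays. Among 13229 other genes with a symbol, the closest was Pmvk, at 0.0084. Next came Timp1 (a metalloproteinase inhibitor), Tubb2b (a beta-tubulin), Sap18, Ints2 (an Integrator complex subunit), Hnrnpd (an RNA-binding protein), Phb (prohibitin), Aunip, Pfdn2 (a prefoldin subunit) and Fam185a, at 0.012 to 0.025. Timp1 and Ints2 were dim, with Timp1 between -5.77 and -5.21 on the 4 arrays. Likeness over only 4 arrays is a description of these arrays. Of the members, Cyp51 lay closest to their own mean with 37 of 20643 features closer, whereas 10166 features were closer than Insig1 and 10585 closer than Lss, Insig1 having another order of arrays and Lss a wider span.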

How the data were processed

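Splenic B cells of 2 Aff3-/- and 2 Aff3+/- samples were hybridised singly to 1-colour Agilent arrays, grouped by their labels. The authors read the spots with Agilent Feature Extraction 10.7.1.1, per the submitters' processing notes. The deposited processed signal is a linear intensity, background-subtracted and detrended within the array, with no scaling between arrays, per the file headers. A second deposited table holds log2 values, of which 25320 gene probes were matched, each row centred on its median over the arrays, with unknown array scaling. Across probes its columns correlated with the centred scanner values at 0.9998 or above.

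Control spots (1377 of 44397) and outlier-flagged spots were left out, log2 signals were scaled to each array's 75th percentile, and a probe was kept where both arrays of either genotype called it well above background (25128 probes, 20643 features, each by its brightest probe). Gene symbols came from RefSeq accessions (GRCm38.p6 table, 26581 probes named so), and promoters from RefSeq's GRCm38.p6 table. The array's precision is limited by the number of arrays. Differences were tested two-sided by limma's lmFit and eBayes (version 3.58.1; R 4.3.3), Benjamini-Hochberg adjusted over all features at 0.05, and the fit was tested on simulated data. Values after ± are standard errors unless named SD.

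The members, lists and tests were chosen with earlier results of these data known. Named genes are all members, the 2 of smallest p in each gene list, pathway genes by role and the 10 most alike genes, and further examples were picked with their values known. Alternatives covered scaling, normalization, background correction, the deposited table, filters, the probe rule, the variance model, a replicate block and leaving out each array. All arrays shared 1 slide and scan, so no slide block was fitted. Some genes of the lists are counted but not reported singly.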

Additional observations from a re-analysis of the deposited data

How the results depend on the processing

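None of the 13 alternatives brought a feature past the adjusted threshold of limma (0 in each). Over the 9 that kept all arrays, 60 of 63 member differences kept their sign, between -0.17 and +0.13, and 3 turned: Hmgcs1, at +0.00034, was -0.020 with normexp background correction and -0.00031 in the deposited log2 values, and Sqle was +0.0011 with each array scaled to its median. The filters on dim probes, the variance model and the replicate block left every member difference unchanged, so their signs could not turn. Averaging probes changed the difference of Fdft1 only. The order of arrays was compared under 7 alternatives added after the data were seen, and the filters on dim probes again left the members' values unchanged. Aff3-/- replicate 1 was lowest for 7 of 7 genes in each, and Aff3-/- replicate 2 highest for 6, or 5 where probes of a gene were averaged. Leaving out 1 array moved the median member difference between -0.31 and +0.24 and the count of members lower without overlap between 0 and 7. By gene these ranges were -0.32 to +0.32 for Hmgcs1, -0.19 to +0.13 for Sqle, -0.23 to +0.40 for Idi1, -0.27 to +0.065 for Insig1, -0.67 to +0.46 for Lss, -0.38 to +0.24 for Cyp51 and -0.31 to +0.16 for Fdft1. A lone array is then assumed to vary like the other genotype. List medians ranged from -0.23 to +0.090 for mevalonate enzymes, -0.31 to +0.10 for sterol ring enzymes, -0.027 to +0.069 for SREBP control genes, -0.10 to -0.04 for uptake genes, -0.17 to +0.20 for fatty acid synthesis genes (+0.0093 with median scaling), -0.12 to +0.033 for LXR and efflux genes and -0.077 to +0.074 for genes of isoprenoid use (-0.0018 with probes averaged), the last 2 lists added after the data were seen. The deposited table turned the SREBP control median to -0.079 over 6 of 13 genes and that of isoprenoid use to -0.010 over 12 of 13. Of its 22089 features 0 were higher without overlap, and these medians rest on fewer genes.

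Both genotypes carry replicate numbers 1 and 2, which the labels tie to no shared mouse or day. Deviations of same-numbered arrays from their genotype means correlated at 0.56 across features. With the number as a replicate block, 0 features passed and 1457 had an unadjusted p under 0.05, against 422 without it, and the median member difference stayed at -0.07. The SE of Hmgcs1 was 0.11 and that of Lss 0.15 with the block. The cause of these dependences was not tested.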

Other observations

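Trib3, Ddit3 and Asns, genes of the ATF4 and CHOP stress response that were chosen after their values were seen, ran against the cholesterol enzymes across the arrays. The pseudokinase gene Trib3 was at 4.76 and 3.26 in Aff3-/- cells, against 4.06 and 2.82 in Aff3+/- cells. Ddit3, which encodes CHOP, was at 2.21 and 0.54 in Aff3-/- cells, against 1.58 and 0.49 in Aff3+/- cells, and the asparagine synthetase gene Asns at 5.51 and 5.01, against 5.13 and 4.82. For each of these genes Aff3-/- replicate 1 was the highest array and Aff3+/- replicate 2 the lowest. Other genes of the endoplasmic reticulum list differed among themselves. The disulfide isomerase gene Pdia6 was at 5.16 and 5.88 in Aff3-/- cells, against 5.26 and 5.66 in Aff3+/- cells, and the calreticulin gene Calr at 3.61 and 4.34, against 3.66 and 4.23, both in the order of the cholesterol enzymes. Pdia4 was nearly level, at 0.61 and 0.64 in Aff3-/- cells and 0.67 and 0.66 in Aff3+/- cells, and Hsp90b1 was lowest on Aff3+/- replicate 1.

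Among lipid genes the widest gap within a genotype was that of Me1, a malic enzyme that supplies NADPH for lipid synthesis. It was at -6.61 and -4.44 in Aff3-/- cells, against -6.84 and -4.85 in Aff3+/- cells, and differed by +0.32 ± 0.97 (SE) between genotypes (limma, adjusted p = 1.00). Its replicate 1 values were dim, close to those of the dimmer Fdft1 probe (-7.49 in Aff3-/- and -6.69 in Aff3+/- cells). The gap of Me1 therefore rests on low signals.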
